A study of Mus musculus with 10 samples.

Results

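The clustered protocadherin genes of the mouse lie side by side on chromosome 18 in the order Pcdha, Pcdhb and Pcdhg, and the open chromatin sites mapped over them by FAIRE-seq in 4 cell types are described here. Members are all sites of the 4 deposited site lists that overlap chromosome 18 from 37080001 to 38002000 of build mm9, a stretch of 922 kb called the locus below. There are 445 such sites among 1816946 in all (0.0245%). Of these, 172 belong to embryonic stem cells (ESC), 65 to epiblast stem cells (EpiSC), 143 to neural stem cells (NSC) and 65 to embryonic fibroblasts (MEF). The rule uses position alone, so the number, width, score and sharing of the sites are free of it.

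Clustered protocadherins are cell adhesion proteins of the cadherin superfamily, known above all from the nervous system, where single neurons express differing sets of isoforms and so acquire a surface identity used in self-avoidance and wiring. In the Pcdha and Pcdhg clusters each variable first exon has a promoter of its own and is spliced to constant exons at the end of the cluster, whereas Pcdhb genes are single-exon genes without a constant part. Promoter choice is known to involve CTCF, cohesin, DNA methylation and distant enhancers. In the RefSeq gene table of build GRCm38, 58 cluster genes were found by symbol, 57 of them protein coding. The Pcdha cluster has 14, of which 12 run from Pcdha1 to Pcdha12 and 2 are the C-type genes Pcdhac1 and Pcdhac2. The Pcdhb cluster has 22, and the Pcdhg cluster 22, made up of 12 Pcdhga, 7 Pcdhgb and 3 C-type Pcdhgc genes, with Pcdhgb8 listed as a transcribed pseudogene. All 14 Pcdha gene models and all 22 Pcdhg gene models end together in that table, and the 22 Pcdhb models do not overlap. Slc25a2, a mitochondrial carrier gene, and Taf7, a general transcription factor gene, stand between Pcdhb22 and Pcdhga1. The gene Zmat2 lies among the neighbours before Pcdha1, and Diaph1 and Hdac3, a formin and a histone deacetylase gene, come after Pcdhgc5. The table and the site lists are on different builds, so no site was given to a gene, and positions are given along the locus, with the Pcdha end first and the Pcdhg end last.

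FAIRE-seq sequences the DNA that stays in the aqueous phase when crosslinked, sheared chromatin is extracted with phenol and chloroform, which is DNA poor in nucleosomes. The ESC were of the E14 line, grown without feeders in N2/B27 medium with 1 uM of the MEK inhibitor PD032590, 3 uM of the GSK3 inhibitor CH99021 and 1000 U/ml LIF. The EpiSC were of the E3 line, expanded on mitomycin C-treated MEF feeders in conditioned medium with 5 ng/ml FGF2 and moved to fibronectin without feeders before crosslinking. The NSC, called ES-derived neural progenitor cells in the labels, were kept in N2B27 with 10 ng/ml each of FGF-2 and EGF, and the MEF came from E16.5 embryos and were kept in DMEM with serum. ESC and EpiSC each stand for a single line, and no genotype or further treatment is given for any group. Each of these groups has 2 samples, as has a control of sheared purified genomic DNA, and 1 list per cell type, filed with replicate 2, was analysed. The MEF samples carry a source label that names NSC chromatin, against their title and cell type, and are called MEF here on the latter. The cell types could not be checked against marker genes, since no gene annotation of mm9 was used.

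Site lists hold 387312 sites in EpiSC to 555868 in NSC, and the read depth behind them is unknown. Chromosome 18 outside the locus had 0.662 times the site density of other autosomes in EpiSC, 0.839 times in ESC, 1.11 times in NSC and 1.03 times in MEF. Densities over the locus are therefore given against the rest of the same chromosome in the same list. With 1 list per cell type, no difference between cell types could be tested against a spread between replicates, and the 95% intervals below are exact intervals for the counting of sites alone. Neighbouring sites are not independent.

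The first comparison asked how densely the locus was populated with open sites in each cell type. ESC held the most sites by midpoint, 172, or 187 per Mb (interval 160 to 217), and NSC held 142, or 154 per Mb (130 to 182). EpiSC held 64, or 69.4 per Mb (53.5 to 88.6), and MEF 65, or 70.5 per Mb (54.4 to 89.9). Set against the rest of chromosome 18, the locus was denser than the chromosome in ESC, at 1.22 times (1.04 to 1.41). It was sparser in the other 3 lists, at 0.646 times in EpiSC (0.497 to 0.825), 0.607 times in NSC (0.511 to 0.716) and 0.389 times in MEF (0.300 to 0.497). The ESC interval does not meet any of the other 3, and those of EpiSC and NSC overlap widely. EpiSC were also low on the rest of the chromosome, as given above, and relative to other autosomes the locus stood at 0.427 times in EpiSC and at 1.02 times in ESC.

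Against its immediate surroundings the locus was poor in sites in all 4 lists. The 1-Mb flank before the locus, on the Pcdha side, held 336 ESC, 190 EpiSC, 271 NSC and 162 MEF sites. The flank after it, on the Pcdhg side, held 364, 322, 396 and 238. Relative to both flanks together the locus had 0.533 times the density in ESC, 0.462 times in NSC, 0.352 times in MEF and 0.271 times in EpiSC. The ESC ratio to the chromosome and its ratio to the flanks thus lie on opposite sides of 1, the flanks holding 350 ESC sites per Mb and the rest of the chromosome 153. Sites covered 11.0% of the bases of the locus in ESC, 6.62% in NSC, 3.26% in EpiSC and 2.79% in MEF. In the flanks these shares were 20.2% and 19.4% in ESC, 14.8% and 24.5% in NSC, 9.99% and 18.2% in EpiSC and 7.07% and 10.3% in MEF.

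**Figure D1:**
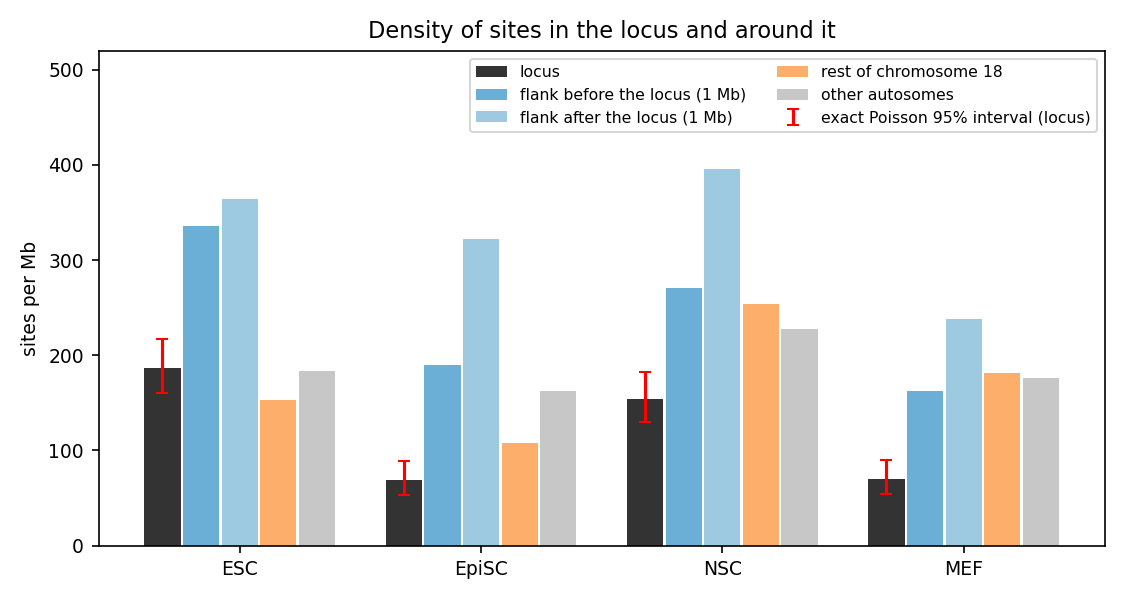
Sites per Mb (y axis, linear from 0) for each list (x axis) in the locus, in the 1-Mb flanks, in the rest of chromosome 18 and on other autosomes; red bars are exact Poisson 95% intervals of the locus. ESC is the list in which the locus, at 187 per Mb, stands above the rest of chromosome 18, at 153 per Mb, while in every list both flanks stand above the locus.

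The place of the locus among windows of its own length was also counted. Of 2610 autosomal windows of 922 kb, 56.2% held fewer ESC sites than the locus, 33.1% fewer NSC sites, 25.1% fewer EpiSC sites and 7.13% fewer MEF sites. Within chromosome 18, 3 of 95 such windows held fewer MEF sites and 63 fewer ESC sites. ESC contributed 38.8% (34.3 to 43.5) of the 443 sites with a midpoint in the locus, NSC 32.1%, MEF 14.7% and EpiSC 14.4%. The ESC share was above that of 91.7% of 2565 autosomal windows with at least 50 sites, whose median was 21.2%. The MEF share was above that of 8.93% of these windows, with a median of 24.1%. The mix of cell types over the protocadherin genes thus leaned to ESC and away from MEF by comparison with most windows of that size. The flanks leaned the same way against these medians, so the lean is not particular to the locus. The flank before the locus held 336 ESC and 162 MEF sites among 959, and that after it 364 and 238 among 1320.

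In bins of 10 kb the locus was filled unevenly. ESC sites fell in 59 of the 92 full bins (64.1%; 57.3% of all autosomal bins held an ESC site) and NSC sites in 61 (66.3%; 73.3% of autosomal bins). EpiSC and MEF sites each fell in 36 bins (39.1%), against 64.7% and 72.4% of autosomal bins. Bins with no site of any list numbered 15 (16.3%), against 8.52% of autosomal bins and 4 of the 200 bins of the flanks. Sites of all 4 lists met in 21 bins (22.8%), against 35.7% of autosomal bins and 60.0% of flank bins. The NSC and ESC lists thus reached most bins, and their intervals (55.7 to 75.8 and 53.5 to 73.9) include the autosomal shares. EpiSC and MEF (interval 29.1 to 49.9 for each) stayed under theirs. On chromosome 18 the shares were 53.5% for ESC, 55.7% for EpiSC, 80.4% for NSC and 76.2% for MEF. In the flanks they were 89%, 89%, 85.5% and 77.5%, above the locus in every list.

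**Figure D2:**
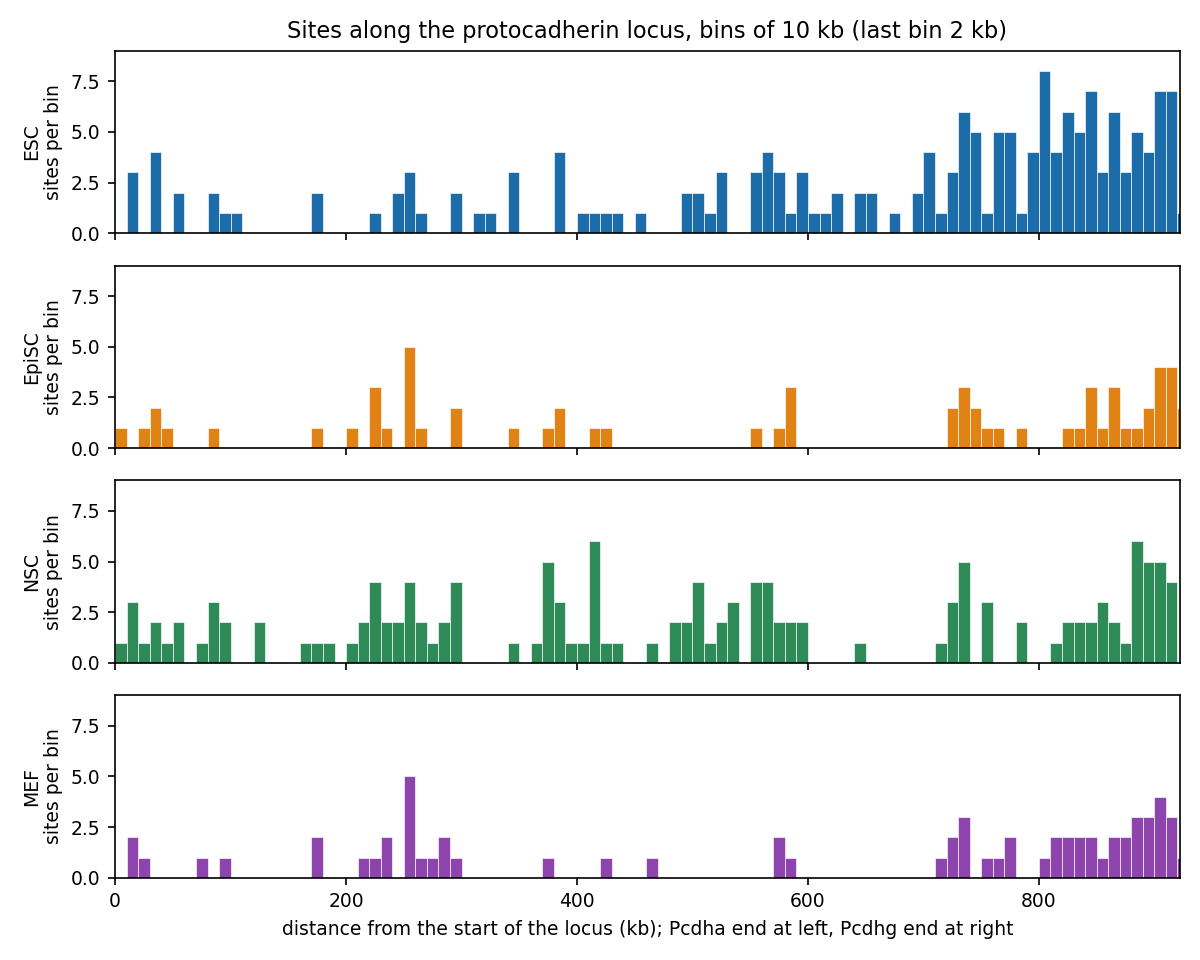
Number of sites by midpoint (y axis) in bins of 10 kb along the locus (x axis, kb from its start, the last bin being 2 kb) for ESC, EpiSC, NSC and MEF. ESC bars are highest over the last 222 kb, where a bin reaches 8 sites, EpiSC and MEF share a peak of 5 sites at 250 kb, and NSC bars are spread along most of the length.

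Bins open in ESC and empty in another cell type were frequent. A total of 29 bins (31.5%) held an ESC site and no EpiSC site, against 8.72% of autosomal bins, 13.5% of the bins of chromosome 18 and 6.5% of flank bins. In reverse, 6 bins (6.52%) held an EpiSC site and no ESC site, against 16.1% of autosomal bins and 15.7% on chromosome 18. In the flanks this share was 6.5%, near that of the locus. An ESC site without a MEF site was found in 31 bins (33.7%; 11.2% of autosomal bins) and a MEF site without an ESC site in 8 (8.70%; 26.3%). Flank bins had 18.5% and 7%, the latter within the counting interval of the locus (3.83 to 16.4). For ESC and NSC the bins were balanced, with 16 holding ESC alone of the pair (17.4%; 9.79%) and 18 NSC alone (19.6%; 25.7%). ESC sites outnumbered those of the other 3 lists together in 22 bins (23.9%; 7.35% of autosomal bins) and NSC sites did so in 11 (12.0%; 15.3%). EpiSC and MEF did so in 0 bins (interval 0 to 3.93%), against 3.88% and 10.3% of autosomal bins and 1.77% and 11.4% on chromosome 18. In the flanks the shares were 14% for ESC, 7% for NSC, 0.5% for EpiSC and 1% for MEF. The interval of 0 bins includes both flank shares. NSC bins empty in EpiSC numbered 27 (29.3%), above the 19.5% of autosomal bins and below the 31.8% of chromosome 18. NSC bins empty in MEF numbered 28 (30.4%), against 13.5% of autosomal bins and 14.8% on chromosome 18.

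Along the locus, the second 100 kb from the Pcdha end held few sites. From 37080001 to 37180000 there were 12 ESC, 6 EpiSC, 16 NSC and 5 MEF sites, and from 37180001 to 37280000 there were 3, 1, 5 and 2. Of autosomal windows of 100 kb, 50% held fewer ESC sites than the first of these blocks, 40.1% fewer NSC, 25.9% fewer EpiSC and 8.74% fewer MEF sites. For the block from 37180001 these shares were 25.1% for ESC, 13.3% for NSC, 5.83% for EpiSC and 4.01% for MEF. The longest stretch without a site of any list ran from 37209328 to 37244179, over 34.9 kb, and the next from 37181254 to 37207266, over 26 kb. The longest ESC stretch without a site, 68.1 kb from 37181254 to 37249378, included both and held 3 NSC sites.

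Beyond it came a block with sites of every list. The block from 37280001 to 37380000 held 9 ESC, 13 EpiSC, 24 NSC and 14 MEF sites, that is 5.23% of the ESC sites of the locus but 20.3% of those of EpiSC and 21.5% of those of MEF. Of autosomal windows of 100 kb, 44.7% held fewer ESC sites, 46% fewer EpiSC, 56.2% fewer NSC and 39.3% fewer MEF sites. In each list 3 of these sites overlapped all 3 others, while 16 NSC, 6 EpiSC, 5 ESC and 4 MEF sites were in no other list. Its bin from 37330001 to 37340000 held the most EpiSC sites (5) and MEF sites (5) of any bin, beside 4 NSC and 3 ESC sites. EpiSC sites covered 20.9% of that bin, MEF sites 20.2%, NSC sites 30.2% and ESC sites 15.1%. Within it lies the region from 37337603 to 37339089, open in all 4 lists, with a top score of 12.6 in ESC, 10.4 in NSC, 7.43 in EpiSC and 3.48 in MEF. Scores are the authors' values per site, without a stated unit, and are read only within a list: these stand at the percentiles 98.1, 92.7, 92.9 and 53.4 of their lists.

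The middle of the locus was populated mainly by NSC and ESC sites. From 37380001 to 37680000 the 3 blocks of 100 kb held 9, 7 and 20 ESC sites and 11, 14 and 24 NSC sites, against 4, 2 and 5 EpiSC and 1, 2 and 3 MEF sites. The bin with the most NSC sites lay here, from 37490001 to 37500000, with 6 NSC, 1 ESC, 1 EpiSC and no MEF site. Of those NSC sites 5 were in no other list, and their scores ran from 2.35 to 5.05. An equal number of NSC sites was found in the bin from 37960001 to 37970000, near the other end, and the bin from 37450001 to 37460000 held 5 NSC, 1 EpiSC, 1 MEF and no ESC site. MEF had no site over 115 kb from 37540979 to 37656427, where NSC had 25 and ESC 16, and EpiSC none over 135 kb from 37501811 to 37637205, where NSC had 20 and ESC 13.

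The block from 37680001 to 37780000 had sites in ESC and nearly none elsewhere. It held 11 ESC sites, 1 NSC site and no EpiSC or MEF site, and all 11 ESC sites were in no other list. Their widths ran from 103 to 924 bp with a median of 176 bp, and their scores from 1.98 to 12.2 with a median at the percentile 64.0 of the ESC list. Blocks without any EpiSC and MEF site make up 2.36% of 24135 autosomal windows of 100 kb, and 3 of these windows, 0.0124%, also held 10 or more ESC sites, a combination described after the values were seen. In EpiSC the empty stretch ran for 139 kb from 37664429 to 37803581, longer than 99.86% of autosomal gaps between EpiSC sites. In MEF it ran for 134 kb from 37663410 to 37797689, longer than 99.95% of MEF gaps. NSC had its longest gaps at the same place, 69.6 kb from 37727539 to 37797180 and 50.2 kb from 37677112 to 37727278, with a single site of 260 bp between them. ESC had 23 sites in the EpiSC stretch and 20 in the MEF stretch.

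The last 222 kb, at the Pcdhg end, held most ESC sites. This stretch, from 37780001 to 38002000, was delimited after the bins had been seen and is given as a description. It is 24.1% of the length of the locus and held 101 of the 172 ESC sites (58.7%, interval 51 to 66.2), 38 of 65 MEF sites (58.5%, 45.6 to 70.6), 33 of 64 EpiSC sites (51.6%, 38.7 to 64.2) and 47 of 142 NSC sites (33.1%, 25.4 to 41.5). The NSC share is the lowest. The stretch was chosen on these same bins and neighbouring sites are not independent, so the intervals cannot test a difference between lists. Densities were 455 per Mb in ESC (371 to 553), 212 in NSC (156 to 282), 171 in MEF (121 to 235) and 149 in EpiSC (102 to 209). Relative to the rest of chromosome 18 these are 2.97, 0.835, 0.945 and 1.38 times. The adjoining 1-Mb flank held 364 ESC, 396 NSC, 238 MEF and 322 EpiSC sites. Per Mb the stretch was thus above this flank in ESC and below it in NSC, MEF and EpiSC.

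Over the preceding 700 kb, which holds the rest of the locus, the order changed. NSC led there with 95 sites, or 136 per Mb (110 to 166), before ESC with 71, or 101 per Mb (79.2 to 128), EpiSC with 31, or 44.3 per Mb, and MEF with 27, or 38.6 per Mb. ESC were then at 0.661 times the density of the rest of chromosome 18, EpiSC at 0.412, NSC at 0.535 and MEF at 0.213. Without the Pcdhg end ESC thus stood under the chromosome like the other lists. That end was delimited after the bins had been seen, so a lower ESC ratio without it follows in part from the choice. The median ESC site lay 743 kb from the start of the locus, the median MEF site 735 kb, the median EpiSC site 724 kb and the median NSC site 501 kb, past a midway point of 461 kb in every list.

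**Figure D3:**
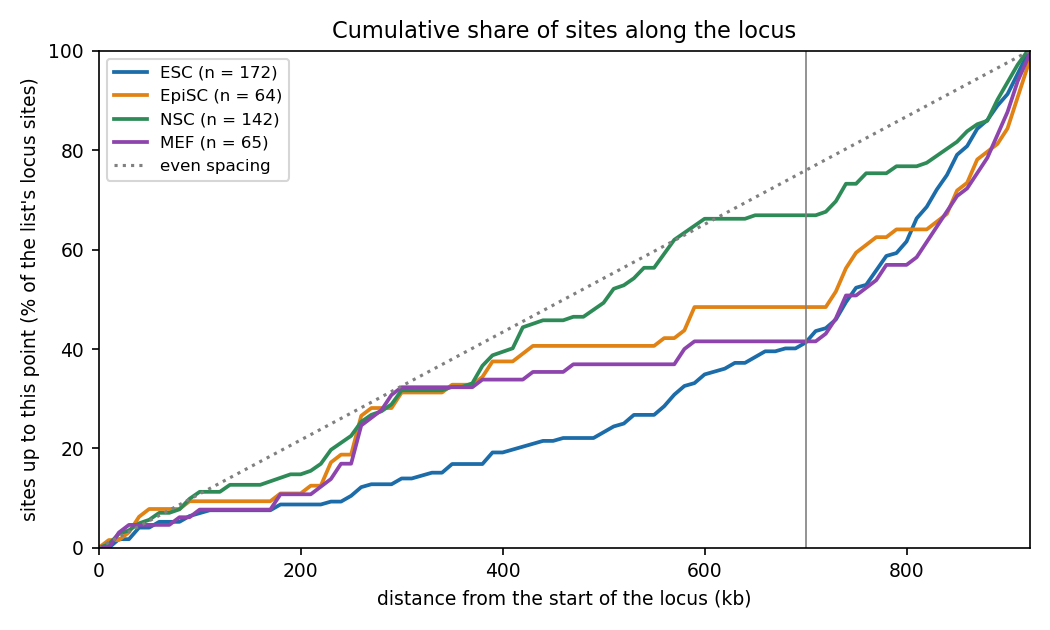
Cumulative share of each list's locus sites (y axis, percent) against the distance from the start of the locus (x axis, kb); the dotted line is even spacing and the vertical line stands at 700 kb. At that line NSC has reached 66.9% of its sites, EpiSC 48.4%, MEF 41.5% and ESC 41.3%, against 75.9% of the length.

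At the Pcdhg end, ESC sites were close together. Their median gap over the last 222 kb was 704 bp, against 4782 bp over the preceding 700 kb and 1328 bp on autosomes, and their median width was 503 bp against 324 bp. They covered 31.4% of the bases there, and 34.7% of the block from 37880001 to 37980000, where 51 ESC, 13 EpiSC, 24 NSC and 20 MEF sites lay. Blocks with 51 or more ESC sites make up 6.44% of autosomal windows of 100 kb. The bin with the most ESC sites, 37880001 to 37890000, had 8, all in no other list, covering 36.1% of its bases with scores of 1.57 to 11.3, beside 1 MEF site and no EpiSC or NSC site. Next came bins with 7 ESC sites, among them that from 37920001 to 37930000, where MEF and NSC had 2 sites each and EpiSC 3. The bin from 37810001 to 37820000 held 6 ESC, 3 EpiSC, 5 NSC and 3 MEF sites. The bin from 37880001 to 37890000 also has the largest lead of any list over the others in the locus. The bin from 37780001 to 37790000, tied for the second largest lead, had 4 ESC sites, all in ESC alone, with scores of 1.34 to 3.66. ESC bins with 3 or more sites and no site of another list numbered 2 (2.17%), this bin and that from 37870001 to 37880000, the latter named after its values were seen, against 0.234% of autosomal bins.

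The outermost 22 kb, next to the flank, were densely open in every cell type. ESC sites covered 74.8% of the bases from 37980001 to 38002000, NSC 47.0%, EpiSC 41.4% and MEF 20.4%. These 22 kb held 15 ESC, 10 EpiSC, 9 NSC and 8 MEF sites, and 2 of the ESC sites, 1 of the EpiSC sites and none of the NSC or MEF sites were in no other list. The bin from 37980001 to 37990000 held 7 ESC, 4 EpiSC, 5 NSC and 4 MEF sites and that from 37990001 to 38000000 held 7, 4, 4 and 3. The widest ESC site, 4065 bp from 37998937 to 38003001, and the widest NSC site, 3277 bp from 38000513 to 38003789, overlapped each other across the end of the locus. Without these 22 kb the ratio to the rest of chromosome 18 was 1.14 for ESC, 0.583 for NSC, 0.558 for EpiSC and 0.350 for MEF.

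The next comparison asked how far the sites of the locus were shared. Most ESC sites of the locus stood alone: 34 of 172 (19.8%, interval 14.1 to 26.5) overlapped an EpiSC site by at least 1 bp, against 40.1% of all ESC sites, 28.2% on the rest of chromosome 18 and 43.0% in the flanks. Overlap with NSC was 43 sites (25%, 18.7 to 32.2), against 33.1% of all ESC sites and 42.6% in the flanks, and with MEF 31 sites (18%, 12.6 to 24.6), against 24.4% and 24.6%. ESC sites in no other list numbered 111 (64.5%, 56.9 to 71.7), against 40.0% of the whole list, 46.0% of the rest of the chromosome and 35.4% in the flanks. The share in no other list was 71.8% over the first 700 kb and 59.4% at the Pcdhg end, so it stood above the list's share in both. EpiSC sites were few on the chromosome as a whole, and the part of that in these shares was not tested.

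In the other direction, the few EpiSC and MEF sites of the locus were shared at least as often as in their lists. EpiSC sites overlapped ESC in 36 of 65 cases (55.4%, 42.5 to 67.7; 45.0% of the list), NSC in 33 (50.8%, 38.1 to 63.4; 38.9%) and MEF in 23 (35.4%, 23.9 to 48.2; 29.1%). MEF sites overlapped ESC in 28 of 65 (43.1%, 30.8 to 56; 25% of the list and 19.6% of the rest of chromosome 18), EpiSC in 23 (35.4%, 23.9 to 48.2; 26.6%) and NSC in 32 (49.2%, 36.6 to 61.9; 40.1%). The MEF overlap with ESC lies above the list's share by more than its counting interval, and close to the 42.2% of the flanks. For the other pairs of EpiSC and MEF the share of the whole list lies within the interval. On the rest of chromosome 18 the share lies below it for EpiSC in ESC (40%) and MEF in EpiSC (18.1%). In the flanks MEF sites overlapped NSC in 59.2% and EpiSC in 40.8% of cases, above the locus but within its intervals. Sites that overlapped all 3 other lists numbered 15 in EpiSC (23.1%, 13.5 to 35.2; 11.1% of the list) and 16 in MEF (24.6%, 14.8 to 36.9; 10.1%), against 17 in ESC (9.88%; 9.78%) and 15 in NSC (10.5%; 7.85%). Flank shares were 16% in EpiSC and 20% in MEF, inside these intervals, and 11.6% in both ESC and NSC.

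NSC sites of the locus were shared with each other list less often than those of the flanks. They overlapped ESC in 42 of 143 cases (29.4%, 22.1 to 37.6; 25.3% of the list), EpiSC in 29 (20.3%, 14 to 27.8; 26.7% of the list and 17.6% on the rest of chromosome 18) and MEF in 30 (21.0%, 14.6 to 28.6; 30.5%). In the flanks these shares were 39.9%, 35.7% and 32.1%, each above the interval of the locus. NSC sites in no other list numbered 83 (58.0%, 49.5 to 66.2), against 47.8% of the list and 39.2% in the flanks. The 54% on the rest of chromosome 18 lies inside the interval. Sites in no other list were 70.5% of the NSC sites in the first 700 kb and 34.0% of those at the Pcdhg end. EpiSC had 20 sites of its own (30.8%; 30.7% of the list) and MEF 22 (33.8%; 43.6%). Of the EpiSC sites at the Pcdhg end, 4 of 33 (12.1%) were in no other list, against 16 of 31 (51.6%) in the first 700 kb, and MEF showed 10 of 38 (26.3%) against 12 of 27 (44.4%).

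**Figure D4:**
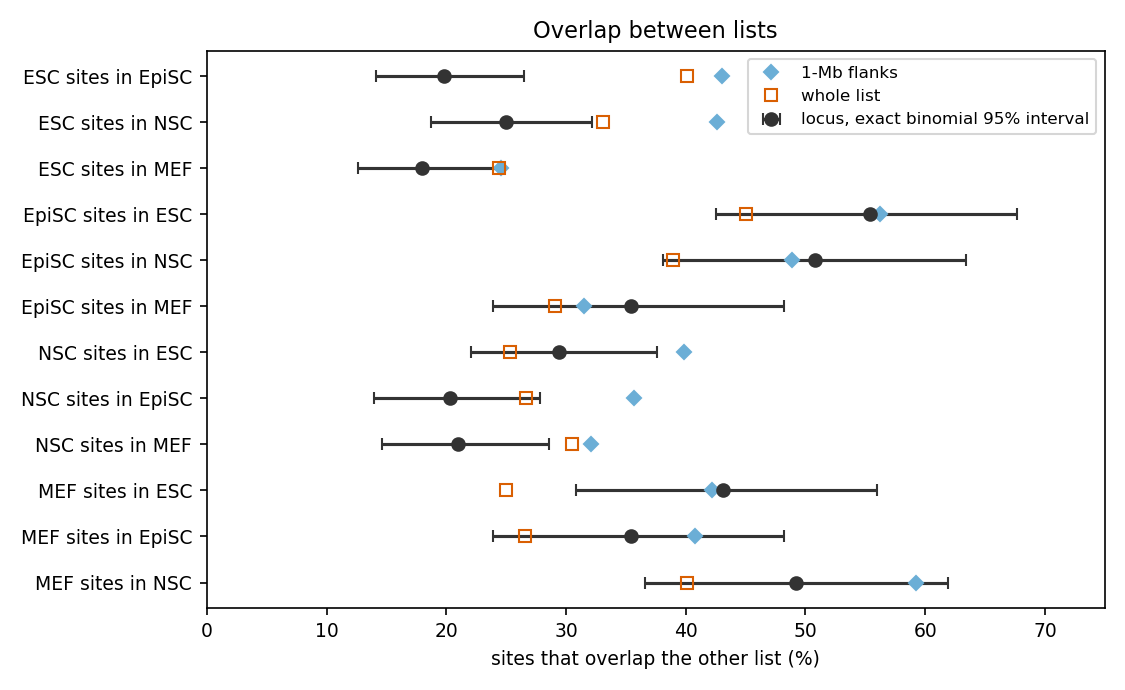
Share of the sites of one list that overlap another list (x axis, percent) for the 12 ordered pairs (y axis); dots with bars are the locus with exact binomial 95% intervals, diamonds the 1-Mb flanks and squares the whole list. ESC sites of the locus overlap EpiSC in 19.8% of cases, left of the 40.1% of the whole list, and MEF sites overlap ESC in 43.1%, right of the 25% of the whole list.

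Merging the sites of the 4 lists gave 305 regions over the locus. Of these, 236 (77.4%) were held by a single list, against 66.1% of all merged regions, 41 by 2 lists, 13 by 3 and 15 by all 4. Regions of ESC alone were the most numerous, 111 (36.4%; 15.6% of all regions and 15.2% of those on the rest of chromosome 18). Then came 83 of NSC alone (27.2%; 23.4% and 29.5%, so that NSC lies between these references). MEF alone held 22 (7.21%; 16.6% and 18.1%) and EpiSC alone 20 (6.56%; 10.5% and 7.07%). The EpiSC share is thus near that of the chromosome. Among pairs, ESC with NSC led with 15 regions (4.92%; 3.03% and 3.5%), before NSC with MEF with 10 (3.28%; 6.36% and 8.42%). Regions shared by the pluripotent pair, ESC with EpiSC, numbered 6 (1.97%; 5.41% and 3.09%), of which 5 lay in the last 222 kb. ESC-only regions were split into 51 in the first 700 kb and 60 beyond, whereas NSC-only regions were split into 67 and 16.

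**Figure D5:**
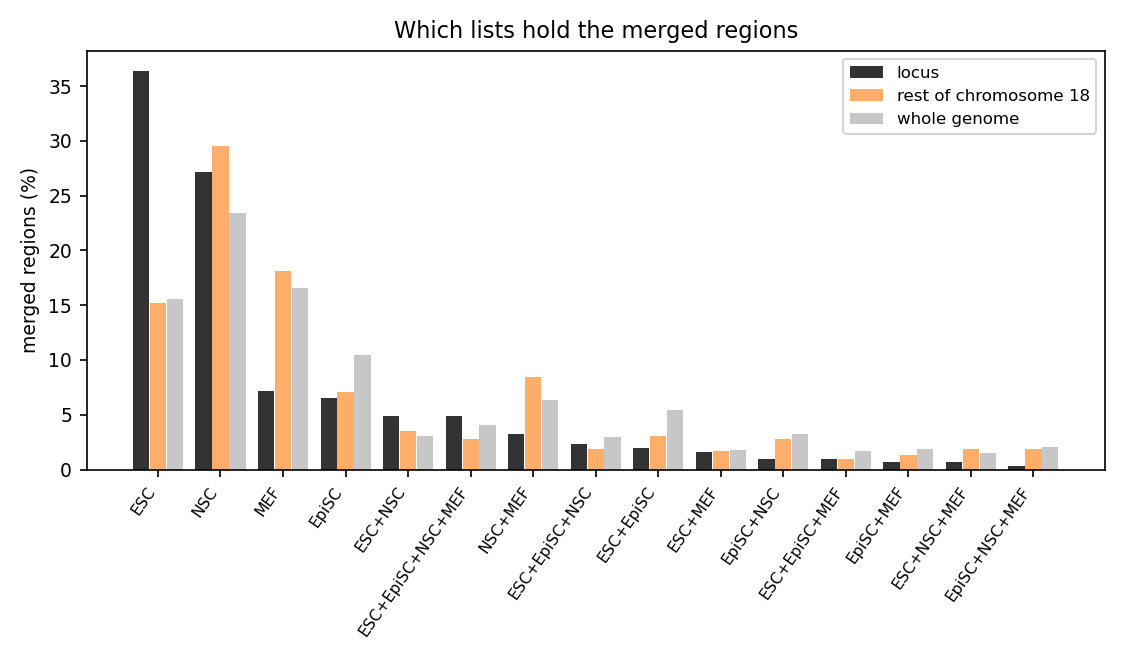
Share of merged regions (y axis, percent) held by each combination of lists (x axis) in the locus, on the rest of chromosome 18 and in the whole genome. ESC alone holds 36.4% of the 305 regions of the locus, against 15.2% on the rest of the chromosome, and MEF alone 7.21% against 18.1%.

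The 15 regions open in all 4 cell types (4.92%; 4.05% of all regions, 2.76% on the rest of chromosome 18) were gathered in a few places. A group of 3 lay between 37331752 and 37378306, inside the block from 37280001 described above, and 1 lay alone from 37656027 to 37657710. The other 11 lay in the last 222 kb, and 5 of these in the outermost 22 kb. By mean percentile of score within the lists, the strongest was the region from 37990630 to 37991363, at 84.6, with top scores of 13.2 in NSC, 7.07 in MEF, 5.38 in EpiSC and 4.86 in ESC. That from 37337603 to 37339089 followed at 84.3. The region from 37833278 to 37834890 stood at 82.0, with top scores of 8 in NSC, 4.34 in MEF, 5.17 in EpiSC and 10.3 in ESC. Those from 37973417 to 37974484, 37985148 to 37987957 and 37814764 to 37815736 stood at 79.7, 79.1 and 78.8. The last of these holds the highest-scoring ESC site of the locus, from 37815105 to 37815736, with a score of 19.5 at the percentile 99.9 of the ESC list.

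Further sites of high score were named in each list, together with the strongest sites of that list alone. In ESC the second was a site of 1251 bp from 37930229 to 37931479 (score 15.0), shared with EpiSC, where a site scored 6.86. The third lay in the middle of the locus, from 37466916 to 37467266 (13.0), and overlapped the highest-scoring EpiSC site, 37466944 to 37467182 (7.75), and an NSC site of score 2.63. The strongest sites of ESC alone were 37325145 to 37325313 (12.3) and 37703102 to 37704025 (12.2), the latter inside the block nearly without sites in the other cell types. The second EpiSC site, from 37127677 to 37127966 (7.64), near the Pcdha end, was shared with NSC (5.21) and absent from the ESC list. The third, from 37337938 to 37338468 (7.43), overlapped sites of all other lists in the bin named above. The strongest EpiSC sites of no other list, 37663875 to 37664003 (5.47) and 37428414 to 37428581 (4.97), were narrow, at 129 and 168 bp.

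NSC had its strongest site near the Pcdha end. It runs from 37096684 to 37097000 with a score of 19.0, at the percentile 99.5 of the NSC list, and no other list has a site there. The second, 37571123 to 37571520 (18.3), overlapped an ESC site of score 4.04, and the third, 37919679 to 37919991 (15.9), was again in NSC alone. In MEF the strongest, 37970954 to 37971679 (8.45), and the third, 37964224 to 37964549 (7.21), lay near the Pcdhg end and overlapped NSC sites of scores up to 4.93 and 10.5. The second, 37507806 to 37507971 (7.34), was in MEF alone, as was 37154837 to 37154996 (6.61). The widest EpiSC site was 2060 bp, from 37980888, and the widest MEF site 1289 bp, from 37995347, both in the outermost 22 kb and of modest score, at the percentiles 50.4 and 1.40.

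Scores of the locus stood above the middle of the list in ESC, EpiSC and NSC and below it in MEF. The median ESC score was 4.74, at the percentile 67.0 of the list, against 49.8 on chromosome 18, and 32 of 172 sites (18.6%, 13.1 to 25.2) were at or above the 90th percentile, which 10.0% of each list reach. In NSC the median stood at the percentile 56 (49.2 on chromosome 18), with 20 of 143 sites (14%, 8.76 to 20.8) in that top class. EpiSC sites stood at 57.3 (45.8 on chromosome 18) and MEF sites at 45.4 (48.9), each with 4 of 65 sites (6.15%, 1.70 to 15.0) in the top class. ESC scores were higher with sharing: the median was 3.66 for the 111 sites in no other list, 5.46 for 31 with 1 other list, 7.70 for 13 with 2 and 8.93 for 17 with all 3, where the whole list had 2.85, 3.48, 4.23 and 7.26. In NSC the 15 sites in all 3 other lists had a median score of 6.83 and a width of 1392 bp, against 4.01 and 265 bp for the 83 in no other list. The 34 NSC sites with 1 other list had a median score of 3.38 and the 11 with 2 others 3.93. The whole NSC list had 3.95, 3.81, 3.65 and 5.39, from no other list to all 3. In MEF the medians did not rise at each step, with 3.06 for the 22 sites in no other list, 3.01 for 19 with 1, 2.23 for 8 with 2 and 3.66 for the 16 with all 3. The whole MEF list showed the same order, with 3.33, 3.27, 3.07 and 3.68.

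By width ESC again came first: a site of the locus had a median of 410 bp, between quartiles of 251 and 722 bp, and the whole list 373 bp. EpiSC sites had a median of 337 bp, MEF sites 321 bp and NSC sites 297 bp, against 338, 323 and 333 bp in their lists. A width of 1 kb or more was reached by 32 of 172 ESC, 10 of 143 NSC, 5 of 65 EpiSC and 2 of 65 MEF sites. The same share over the whole lists was not counted, so these numbers are not read as a trait of the locus. Gaps between neighbouring sites were wide in 3 lists, with medians of 4557 bp in MEF, 4422 bp in EpiSC and 3037 bp in NSC, against 2507, 2343 and 1478 bp on autosomes. In ESC the median gap was 1404 bp, near the 1328 bp of autosomes, and 43.3% of gaps were under 1 kb, against 42.8%.

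Sites without overlap lay farther from the nearest EpiSC or MEF site than on autosomes, and closer to the nearest ESC site. These distances depend on the site densities given above, and EpiSC sites were sparse on all of chromosome 18. They were not measured for that chromosome or the flanks, so they are not read as a trait of the locus. The 138 ESC sites without EpiSC overlap lay a median of 4.29 kb from the nearest EpiSC site, against 1.34 kb on autosomes, and the 141 without MEF overlap 4.82 kb from a MEF site, against 1.89 kb. From the 29 EpiSC sites without ESC overlap the nearest ESC site was 1.08 kb away, against 1.78 kb. From the 37 MEF sites it was 1.54 kb away, against 3.31 kb, and from the 101 NSC sites 1.89 kb, against 3.15 kb. The nearest NSC site was 2.1 kb from ESC sites (1.6 kb on autosomes), 2.13 kb from MEF sites (1.47 kb) and 1.56 kb from EpiSC sites (1.61 kb). Across the 92 bins, site counts of EpiSC and NSC had a Spearman correlation of 0.59, EpiSC and MEF of 0.56, NSC and MEF of 0.49, ESC and EpiSC of 0.47, ESC and MEF of 0.43 and ESC and NSC of 0.36. On autosomal bins the order differed, with 0.63 for ESC and EpiSC first and 0.24 for ESC and MEF last. On chromosome 18 and in the flanks, ESC and EpiSC had 0.51 and 0.4, on either side of the locus. NSC and MEF had 0.4 and 0.52 there, EpiSC and NSC 0.28 and 0.34, and EpiSC and MEF 0.27 and 0.3. ESC and MEF had 0.18 and 0.17, and ESC and NSC 0.2 and 0.13. Over the 70 bins before the last 222 kb the correlation of ESC and MEF was 0.043 and that of ESC and EpiSC 0.30, while that of ESC and NSC was 0.42, of NSC and MEF 0.43, of EpiSC and MEF 0.44 and of EpiSC and NSC 0.52. All bins come from the same 4 lists and a single locus, and these values are a description.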

How the data were processed

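FAIRE-seq libraries were amplified by PCR, size-selected on gels and sequenced on an Illumina Genome Analyzer, per the labels' protocols. CASAVA 1.8 and build mm9 are named in the submitters' processing notes. Each deposited list gives sites with a score made by the authors, and a display score, equal within 1 to 100 times the first up to a limit of 1000. The list names hold the word qeseq; the making of scores, the thresholds, the use of the genomic control and any pooling of replicates were steps not given in the sources used here. Positions count from 0 in the files, with the end excluded, and are printed 1-based. Lengths of chromosomes run from the first to the last site of any list. Overlap means 1 shared bp, checked against bedtools 2.31.1 with identical counts and tested on simulated lists. Densities count midpoints. Intervals are exact Clopper-Pearson or Poisson 95% intervals. With 1 list per cell type no test was made. Per list, the text names the 3 highest-scoring sites, the 2 highest of no other list, the widest site, the 3 fullest bins and the longest empty stretch, and beyond that the 6 strongest regions of all 4 lists and the 3 bins with the largest lead; tied bins are given in part. Members and rules were chosen with earlier results of these data known. Gene names come from the RefSeq table of GRCm38 alone. Scripts used matplotlib 3.10.9, scipy 1.17.1, numpy 2.4.6 and pandas 2.3.3 under Python 3.11.15. The alternatives tried were higher score thresholds, equal list lengths, other references, overlap, merging and bin widths.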

Additional observations from a re-analysis of the deposited data

How the results depend on the processing

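No paired analysis was possible because a single list stood for each cell type, and for the same reason no replicate could be left out. Of 91 alternative values, 66 stayed within the interval of the value reported, or within 1.5 times for counts, and 25 moved; except where fewer sites, other bins or another reference move a value by construction, the cause was not tested. The density ratios to chromosome 18 became 1.55 in ESC and 0.841 in EpiSC with the 50% of sites of highest score, and 1.51 in ESC by covered bases. Against the 1-Mb flanks they were 0.533 in ESC, 0.271 in EpiSC and 0.462 in NSC, and against other autosomes 1.02 in ESC and 0.427 in EpiSC. Over the first 700 kb of the locus, an alternative chosen after the data were seen like that without the last 22 kb, they were 0.661 in ESC, 0.412 in EpiSC and 0.213 in MEF. With the higher-scoring 50%, EpiSC sites overlapped ESC in 68.4% and MEF in 23.7% of cases. Occupied bins, in the order ESC, EpiSC, NSC and MEF, were then 52.2%, 28.3%, 47.8% and 26.1%, with bins of 5 kb 48.4%, 24.5%, 48.9% and 26.1%, and with bins of 20 kb 84.8%, 58.7%, 78.3% and 54.3%. Regions of all 4 lists numbered 10 to 14 under the alternatives. Lists of equal length moved none of these values. ESC was the list with the highest ratio to chromosome 18 under each of the 8 alternatives. Read depth is unknown, so numbers of sites in different lists are limited by it.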
